A study of Mus musculus with 12 samples.

Results

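Adrenergic and renin-angiotensin signalling in the mouse heart was followed through 8 genes, taken by name: the adrenergic receptors Adrb1, Adra1a and Adra1b, the receptor kinase Grk2, the angiotensin receptor Agtr1a, and Agt, Ace and Atp6ap2 of the renin-angiotensin system. All 8 were found by gene symbol among the 49315 genes of the deposited count files, and all 8 were among the 15476 genes that passed the filter on low counts. RNA was sequenced from 12 heart libraries of wild-type female C57BL/6J mice aged 27 to 29 weeks, with 3 libraries in each of 4 groups. The series, on remodelling of the heart in pregnancy with metabolic syndrome, crossed diet with pregnancy. Control diet nonpregnant and control diet postpartum mice were fed 10% kcal fat, and Western diet nonpregnant and Western diet postpartum mice were fed 45% kcal fat with 17% kcal sucrose. Feeding lasted 15 weeks before breeding, and postpartum hearts were taken on day 1 after delivery. The sample numbers in the labels run lower in all postpartum than in all nonpregnant samples, so that order and pregnancy cannot be told apart. The labels name no transgene and no drug in any group.

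Noradrenaline from sympathetic nerves and circulating adrenaline act on the heart through beta receptors, which couple to Gs and cyclic AMP and raise rate and force, and through alpha-1 receptors, which couple to Gq. Grk2 phosphorylates activated receptors and starts their desensitisation. In the renin-angiotensin system, renin cuts angiotensinogen (Agt) to angiotensin I, Ace converts this to angiotensin II, and the type 1 receptor (Agtr1a and Agtr1b in mice) carries its effects on vessel tone, growth and fibrosis. Atp6ap2 is the prorenin receptor and an accessory subunit of the vacuolar proton pump.

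Totals per library ran from 22754591 to 29492416 counts, and levels are given as CPM, counts scaled to a fixed total after adjusting library sizes by trimmed means. Summed CPM of 10 cardiomyocyte markers ran from 87040 to 105400. Of 6 atrial markers, Myl7, Sln and Bmp10 were below 1 CPM in all libraries. Sums over the 6 ran from 65.6 to 105.5 CPM in control diet and 34.1 to 65.7 CPM in Western diet hearts. For diet averaged over pregnancy states, 2 of the 3 atrial markers tested had a positive log2 fold change. The remaining 1 was lower at an edgeR adjusted p under 0.05. Control diet postpartum replicate 3 stood apart in fat genes, with Ucp1 at 73.1 CPM against at most 0.545 in the other 11 libraries. Results that use this library are given with and without it where they turn on it.

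The type 1 angiotensin receptor has 2 near-identical mouse genes, so the start of each coding sequence is shown to make plain which gene the counts belong to. Agtr1a lies at chr13:30336441-30382867 on the plus strand of GRCm38. The 2 longest open reading frames in the GENCODE M21 transcripts are 1080 bases each and identical at 981 of them (90.83%). Capitals mark the 8 bases that differ within the first 90.
Agtr1a: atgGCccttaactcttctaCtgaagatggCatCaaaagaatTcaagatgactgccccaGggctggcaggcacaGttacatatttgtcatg
Agtr1b: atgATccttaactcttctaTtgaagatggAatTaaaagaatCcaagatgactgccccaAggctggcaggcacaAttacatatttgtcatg
Agtr1b had 0 counts in all 12 libraries, which allows a level of up to 0.102 to 0.132 CPM by counting error alone, while Agtr1a had 616 to 1063 counts per library. Of the 2922 stretches of 50 bases in Agtr1a transcripts, 37 (1.27%) occur in another gene.

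Promoter sequence from RefSeq (GRCm38.p6) was available for 5 of the 8 genes in the tables used here. The 250 bases before the start of Adrb1, Agt and Ace are shown because these genes had groups of libraries that did not overlap. They are written 5′ to 3′ on the coding strand, and capitals mark matches on either strand to the CCAAT box (letters CCAAT), the GC box (letters GGGCGG), the TATA box (letters TATAAA) and the core of the cyclic AMP response element (letters TGACG). Their coordinates are chr19:56721867-56722116 on the plus strand for Adrb1, chr8:124569707-124569956 on the minus strand for Agt and chr11:105967698-105967947 on the plus strand for Ace.
Adrb1: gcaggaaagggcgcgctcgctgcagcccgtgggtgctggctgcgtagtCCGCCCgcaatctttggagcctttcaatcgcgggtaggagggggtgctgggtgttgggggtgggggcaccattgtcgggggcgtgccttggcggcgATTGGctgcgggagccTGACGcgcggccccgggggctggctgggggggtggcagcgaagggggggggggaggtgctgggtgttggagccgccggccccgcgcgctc
Agt: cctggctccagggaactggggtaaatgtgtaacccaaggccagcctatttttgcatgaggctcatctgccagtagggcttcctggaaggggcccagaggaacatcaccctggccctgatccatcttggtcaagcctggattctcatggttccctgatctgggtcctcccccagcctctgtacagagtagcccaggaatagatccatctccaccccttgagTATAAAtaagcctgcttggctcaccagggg
Ace: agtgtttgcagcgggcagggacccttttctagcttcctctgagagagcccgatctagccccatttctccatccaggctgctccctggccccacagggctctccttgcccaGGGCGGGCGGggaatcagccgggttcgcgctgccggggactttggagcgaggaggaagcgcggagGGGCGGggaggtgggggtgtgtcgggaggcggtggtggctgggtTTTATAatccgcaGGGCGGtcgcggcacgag
Agt holds TATAAA 30 to 25 bases before its start, and Ace holds the same letters on the other strand 31 to 26 bases before its start, a motif present in 12.4% of all 32851 promoter windows. Ace also holds GGGCGG at 4 places, 2 of which overlap (32.7% of windows hold it at least once). Adrb1 has 74% G and C in its window, against a median of 52.4% over all windows, and holds TGACG 90 to 86 bases before its start (17.8% of windows). None of the 3 holds the full palindrome TGACGTCA, found in 1.55% of windows, or the E-box CACGTG, found in 6.02%. Distances are counted from RefSeq's starts, and for Adrb1 that start lies upstream of the gene start in the count files' annotation. These matches describe the letters and were not tied to any measured binding.

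Compared per length, as RPKM, the CPM divided by exon length in kilobases, Grk2 was the most abundant of the 8 transcripts with a mean of 16.1 (range 14.7 to 17.3 over 12 libraries). Agtr1a followed at 13.1 RPKM and lay under Grk2 in 11 of 12 libraries. Adra1b at 9.87, Adrb1 at 9.48 and Ace at 9.13 RPKM had ranges that overlapped, and neighbours in this order held their place in only 7 and 8 of 12 libraries. Atp6ap2 stood at 7.39 RPKM. Agt at 2.81 and Adra1a at 2.32 RPKM were the lowest, clear of Atp6ap2 in every library and overlapping each other. Adra1a has the longest exonic sequence of the 8, 8144 bases, so its 349 to 637 counts per library correspond to a low level per length. The other alpha-1 receptor, Adra1b, was above Adra1a per length in every library.

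**Figure D1:**
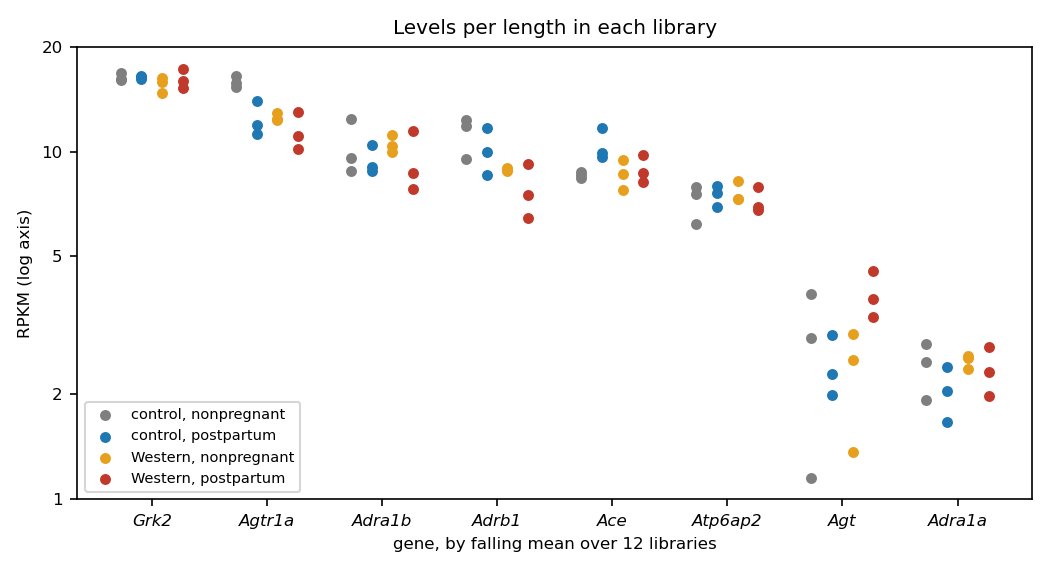
RPKM of each gene in each of the 12 libraries, on a log axis, with genes in falling order of their mean and 1 point per library coloured by group. Grk2 sits between 14.7 and 17.3, while Agt and Adra1a lie below every other gene.

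Replicate spread separated Grk2 from the other members. The pooled coefficient of variation within groups was 4.38% for Grk2, against a median of 6.04% among the 501 genes nearest to it in level. It was 13.6% for Adrb1 against 6.90%, 15.0% for Adra1a against 7.57% and 14.8% for Adra1b against 6.40%. Agtr1a varied by 8.05% against 6.57%. Agt varied most, by 32.1% against 12.6%, on 60 to 210 counts per library. Ace varied by 9.09% against 5.84% and Atp6ap2 by 8.90% against 7.54%. Every member except Grk2 thus varied within groups by more than the median gene of its level.

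Across the 5 comparisons of 2 groups, 1 gene in 1 comparison passed the test among the 8. Agtr1a was lower in Western diet postpartum than in control diet nonpregnant hearts, a comparison in which diet and pregnancy both differ and cannot be told apart. In that comparison 1.18% of all 15476 genes tested passed as lower and 2.62% passed in either direction. The tests are edgeR's quasi-likelihood F test with Benjamini-Hochberg adjustment over all genes and a threshold of 0.05. Each comparison of diet or of pregnancy alone, and the interaction, passed 0 of the 8 with edgeR. At an unadjusted p under 0.05 there were 2 members for pregnancy on control diet (Agtr1a and Ace), 1 on Western diet (Agt), 2 for diet in postpartum hearts (Adrb1 and Ace), 2 for diet in nonpregnant hearts and for averaged diet (Adrb1 and Agtr1a), 2 for averaged pregnancy (Agtr1a and Ace) and 0 for the interaction. Over all genes tested, the share at an unadjusted p under 0.05 was 12.5% and 14.7% for pregnancy on control and Western diet, 14.6% and 9.58% for diet in postpartum and nonpregnant hearts, 14.3% for averaged diet, 17.6% for averaged pregnancy and 8.98% for the interaction, so counts of 1 or 2 among 8 are not far from the background. DESeq2 called 1 member for averaged pregnancy, where it called 596 of the 15476 genes, and 1 for averaged diet, where it called 465. It called 0 members in the other comparisons of a single factor. In bulk tissue, fewer cells of a type and less RNA per cell cannot be told apart.

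Adrb1, the beta-1 receptor and the main beta receptor of cardiomyocytes, lies at chr19:56722372-56724862 in 1 exon. It stood at 23.7, 29.5 and 30.7 CPM in control diet nonpregnant hearts and at 21.4, 29.2 and 24.8 CPM in control diet postpartum hearts. In Western diet hearts it stood at 21.9, 22.4 and 22.2 CPM in nonpregnant mice and at 18.7, 16.0 and 22.9 CPM in postpartum mice. All Western diet libraries lay below the lowest control diet nonpregnant library, and the 3 Western diet nonpregnant libraries lay within 0.5 CPM of one another. Group means were, from highest to lowest, control diet nonpregnant (28.0 ± 3.73 CPM), control diet postpartum (25.1 ± 3.90), Western diet nonpregnant (22.2 ± 0.222) and Western diet postpartum (19.2 ± 3.49; SD, n = 3 each).

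The log2 fold change of Adrb1 between Western diet postpartum and control diet nonpregnant hearts was -0.54 (SE 0.14, 95% interval -0.83 to -0.25), with an edgeR adjusted p of 0.0509. It passed with DESeq2 (adjusted p = 0.00758) and with a filter of 1 CPM (0.0488), and leaving out 1 library gave adjusted p-values from 0.0294 to 0.182. Of 14 alternative fits with edgeR, DESeq2 or limma-voom, 6 passed. Among those that did not leave out 1 library, the highest adjusted p was 0.0985. Western against control diet gave -0.33 (SE 0.13, adjusted p = 0.461) in nonpregnant and -0.38 (SE 0.14, adjusted p = 0.200) in postpartum hearts with edgeR. Averaged over pregnancy states the diet difference was -0.36 (SE 0.10, interval -0.56 to -0.15, edgeR adjusted p = 0.0860, and 0.0184 with DESeq2). For that effect 1.38% of all genes passed with edgeR, and DESeq2 called 465 genes. Postpartum against nonpregnant gave -0.16 on control and -0.21 on Western diet, and their difference was -0.05 (interval -0.46 to 0.36). Adrb1 and Agtr1a were the 2 of 8 genes whose groups did not overlap between Western diet postpartum and control diet nonpregnant, both lower, as for 9.89% of all genes.

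**Figure D2:**
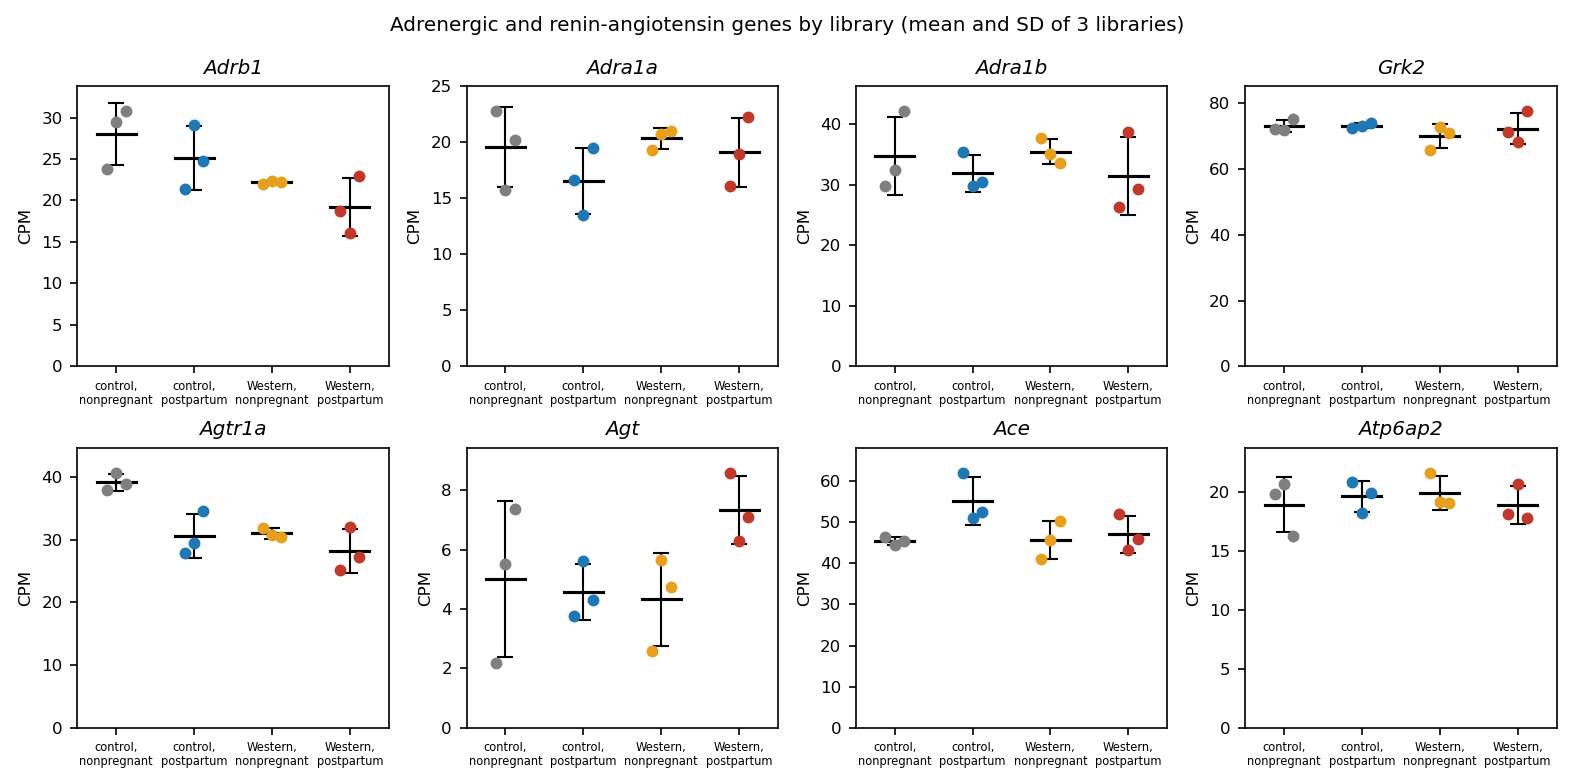
CPM of the 8 genes in each library, by group, with a point per library, the group mean as a bar and its SD as the error bar, from 0. Agtr1a in control diet nonpregnant hearts lies above every other library, and Agt shows the widest scatter for its level.

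Adra1a and Adra1b, the alpha-1 receptors that couple to Gq, showed no difference past the test in any comparison. Adra1a (chr14:66635251-66733462) had group means of 19.6 ± 3.56, 16.6 ± 2.98, 20.3 ± 0.923 and 19.1 ± 3.09 CPM in control diet nonpregnant, control diet postpartum, Western diet nonpregnant and Western diet postpartum hearts. Adra1b (chr11:43774606-43901210) had means of 34.7 ± 6.49, 31.9 ± 3.06, 35.5 ± 2.07 and 31.5 ± 6.43 CPM in the same order. Libraries of all 4 groups overlapped for both genes. The control diet nonpregnant replicate 3 was high in Adra1b at 42.1 CPM, and the highest value in Western diet postpartum hearts was 38.7. Postpartum against nonpregnant averaged over diets gave -0.17 for Adra1a and -0.15 for Adra1b (edgeR adjusted p = 0.446 and 0.476).

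Grk2, which lies at chr19:4286001-4306222, had no difference past the test in any comparison. It stood at 72.3, 71.9 and 75.2 CPM in control diet nonpregnant hearts and at 72.6, 73.2 and 74.0 CPM in control diet postpartum hearts. In Western diet hearts it stood at 65.9, 72.9 and 71.1 CPM in nonpregnant mice and at 71.2, 68.2 and 77.5 CPM in postpartum mice. The control diet groups lay within 71.9 to 75.2 CPM. Western diet nonpregnant hearts reached below that range, and Western diet postpartum hearts reached below and above it. Pregnancy gave a log2 fold change of 0.00 on control diet (interval -0.13 to 0.13) and 0.05 on Western diet (interval -0.08 to 0.18). Diet gave -0.02 in postpartum hearts (interval -0.15 to 0.11) and -0.06 in nonpregnant hearts (interval -0.19 to 0.07). The comparison across both factors gave -0.02 (interval -0.15 to 0.11). These intervals bound a change in Grk2 more closely than those of any other member.

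Agtr1a, the angiotensin II receptor, was highest in control diet nonpregnant hearts at 38.0, 40.6 and 38.8 CPM. It stood at 27.8, 29.5 and 34.5 CPM in control diet postpartum hearts and at 31.9, 30.7 and 30.3 CPM in Western diet nonpregnant hearts. Western diet postpartum hearts had 25.2, 32.0 and 27.3 CPM. Every control diet nonpregnant library lay above all other libraries, and the other 3 groups overlapped one another. Means were 39.1 ± 1.35, 30.6 ± 3.49, 31.0 ± 0.822 and 28.1 ± 3.50 CPM (SD, n = 3 each).

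Against control diet nonpregnant hearts, Agtr1a in Western diet postpartum hearts had a log2 fold change of -0.48 (SE 0.09, interval -0.67 to -0.28) with an edgeR adjusted p of 0.0191. The call was lost when only these 2 groups were fitted (0.0504), without control diet nonpregnant replicate 2 (0.0859) or 3 (0.055), and without Western diet postpartum replicate 1 (0.0918) or 3 (0.0761). The call held without control diet nonpregnant replicate 1 (0.0302) and Western diet postpartum replicate 2 (0.00381). Over all these fits that left out 1 library, the estimate ranged from -0.58 to -0.40. Pregnancy on control diet gave -0.35 (SE 0.09, interval -0.55 to -0.16, edgeR adjusted p = 0.148), and -0.45 (adjusted p = 0.138) without the control diet postpartum library that carried fat genes. In that comparison 0.239% of genes passed, and 8.96% of genes had groups that did not overlap with postpartum lower. Diet in nonpregnant hearts gave -0.34 (SE 0.09, adjusted p = 0.268), where 0.0582% of genes passed and 7.84% did not overlap with Western diet lower.

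In the other strata the estimates for Agtr1a lay closer to 0. Pregnancy on Western diet gave -0.14 (interval -0.34 to 0.06) and diet in postpartum hearts -0.12 (interval -0.32 to 0.08). The interaction, which tests whether pregnancy acted differently on the 2 diets, was 0.22 (interval -0.06 to 0.50, edgeR adjusted p = 0.630), and the strata were not shown to differ. Averaged effects were -0.25 for pregnancy (SE 0.07, edgeR adjusted p = 0.0720, and 0.0297 with DESeq2) and -0.23 for diet (SE 0.07, adjusted p = 0.110). The pregnancy effect averaged over diets passed for 1.78% of all genes with edgeR, and DESeq2 called 596 genes for it. The interaction passed for 0% of genes with edgeR, 1390 genes had an unadjusted p under 0.05, and DESeq2 called 30.

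Some cell type markers moved in the comparison that called Agtr1a. Of 10 cardiomyocyte markers, 0 had a positive log2 fold change (median -0.15, 1 passed as lower). Of 10 fibroblast markers 9 were positive (median 0.27), with sums of 1887 to 2346 CPM in control diet nonpregnant and 2316 to 2773 CPM in Western diet postpartum hearts. Of 10 endothelial markers 9 were positive and 2 passed as higher (median 0.21), with sums of 1092 to 1124 CPM in control diet nonpregnant and 1165 to 1347 CPM in Western diet postpartum hearts, which did not overlap. All 10 macrophage and monocyte markers were positive and 1 passed as higher (median 0.33), with sums of 282.6 to 355.5 and 357.0 to 420.6 CPM, which did not overlap either. Of the 6 white adipocyte markers tested 3 were positive and 1, Fabp4, passed as higher (median 0.13, lowest -0.86). Sums over all 8 listed were 512.1 to 639.8 and 756.9 to 835.5 CPM. Little of these sums came from Adipoq, Cfd and Plin1. Outside control diet postpartum replicate 3 these were at most 0.543, 1.51 and 0.698 CPM, and Lep was below 1 CPM in all libraries. Pericyte and smooth muscle markers, from cells known for angiotensin receptors, had a median of 0.05 with 7 of 10 positive, and their sums overlapped at 1188 to 1296 and 1133 to 1321 CPM. Of the 5 autonomic nerve and glia markers tested, 1 was positive (median -0.40), and the sums over all 8 listed were 10.1 to 10.3 CPM in control diet nonpregnant and 5.99 to 9.68 CPM in Western diet postpartum hearts, with Prph and Th below 1 CPM in all libraries. Of the 4 lymphocyte markers tested, 1 was positive (median -0.67), and 6 of the 8 listed were below 1 CPM in all libraries. Of the 3 atrial markers tested, 2 were positive (median 0.20). Of 5 brown adipocyte markers tested 3 were positive (median 0.11), and of 5 blood markers 3 (median 0.02). No lymphocyte, atrial, brown adipocyte or blood marker passed. The part of all these markers in the Agtr1a and Adrb1 values was not tested.

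**Figure D3:**
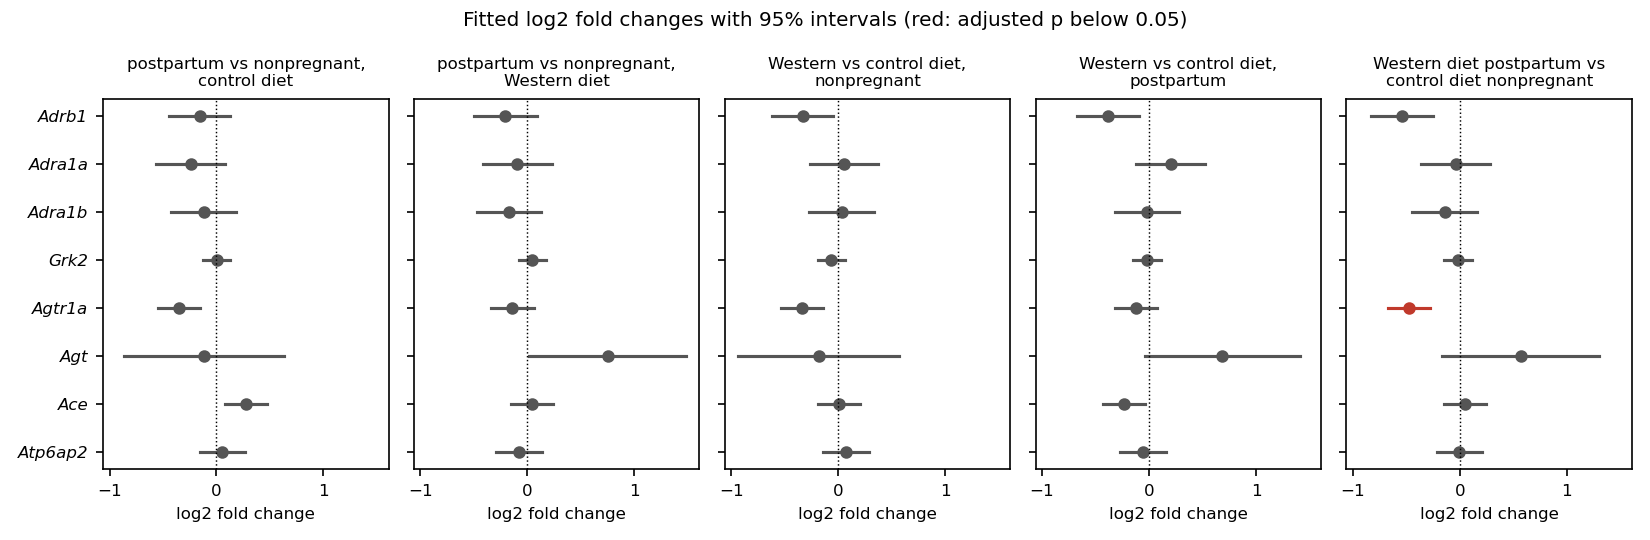
Fitted log2 fold changes (points) with 95% intervals (lines) for the 8 genes in the 5 comparisons of 2 groups, red where the adjusted p was below 0.05. The 1 red point is Agtr1a at -0.48 in Western diet postpartum against control diet nonpregnant hearts, and the intervals of Agt are the widest.

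Agt, the angiotensin precursor (chr8:124556534-124569706), was the scarcest of the 8 in CPM. It stood at 2.18, 5.505 and 7.35 CPM in control diet nonpregnant hearts and at 3.78, 5.62 and 4.32 CPM in control diet postpartum hearts. In Western diet hearts it stood at 2.58, 5.64 and 4.75 CPM in nonpregnant mice and at 8.58, 6.30 and 7.11 CPM in postpartum mice. All 3 Western diet postpartum libraries lay above both control diet postpartum and Western diet nonpregnant libraries, and they overlapped the control diet nonpregnant range through its replicate 3.

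Pregnancy on Western diet gave Agt a log2 fold change of 0.75 (SE 0.34, interval 0.02 to 1.49, edgeR adjusted p = 0.326), where 0.588% of genes passed and 10.1% did not overlap with postpartum higher. Diet in postpartum hearts gave 0.69 (SE 0.34, interval -0.04 to 1.41, adjusted p = 0.376), where 0.879% passed and 9.86% did not overlap with Western diet higher. Both comparisons share the Western diet postpartum libraries. On control diet the pregnancy difference was -0.12 (interval -0.86 to 0.63), and the interaction was 0.87 (interval -0.18 to 1.92, edgeR adjusted p = 0.606). None of these passed, and the intervals leave changes of either small or large size possible. The Agt value of the library with fat genes, 4.32 CPM, lay inside its group's range.

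Ace, which makes angiotensin II (chr11:105967945-105989964), stood at 46.3, 44.5 and 45.4 CPM in control diet nonpregnant hearts and at 61.9, 51.0 and 52.4 CPM in control diet postpartum hearts. Western diet nonpregnant hearts had 40.9, 45.7 and 50.2 CPM and Western diet postpartum hearts 51.8, 43.2 and 45.9 CPM. Only the control diet postpartum libraries lay clear of the control diet nonpregnant group, with replicate 1 the highest. Pregnancy on control diet gave a log2 fold change of 0.28 (SE 0.09, interval 0.08 to 0.48, edgeR adjusted p = 0.235), and 0.32 (adjusted p = 0.371) without the library with fat genes, where 8.12% of genes did not overlap with postpartum higher. Pregnancy on Western diet gave 0.04, and the interaction was -0.24 (interval -0.52 to 0.04, adjusted p = 0.601). Ace overlaps the antisense gene Gm11651, which had 0 to 5 counts per library, and the strand setting of the counting is not given in the sources used here.

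Atp6ap2 (chrX:12587801-12617049) had group means of 18.9 ± 2.34, 19.6 ± 1.33, 19.9 ± 1.44 and 18.9 ± 1.59 CPM in control diet nonpregnant, control diet postpartum, Western diet nonpregnant and Western diet postpartum hearts. Libraries of all groups overlapped. The averaged pregnancy effect was -0.01 (interval -0.16 to 0.14). Of the 5 comparisons of 2 groups, the one across both factors gave the value nearest to 0, -0.0037 (interval -0.22 to 0.21). Pregnancy gave 0.05 on control diet (interval -0.16 to 0.26) and -0.08 on Western diet (interval -0.29 to 0.13). Diet gave -0.06 in postpartum hearts (interval -0.27 to 0.15) and 0.07 in nonpregnant hearts (interval -0.14 to 0.28).

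Beyond these 8, a list of 109 genes of both pathways was followed, of which 91 passed the filter. Their median log2 fold change between Western diet postpartum and control diet nonpregnant hearts was 0.01, against 0.00 over all genes tested, with 47 of 91 positive. In that comparison 2 of the 91 passed as higher, Cma1 among them, and 2 as lower (Rgs2 and Pln), against 1.45% and 1.18% of all genes. In postpartum hearts 1 passed as higher on Western than on control diet (0.646% of genes). In the diet effect averaged over pregnancy states 2 passed as higher, Cma1 among them (0.989% of genes). Slc22a3 passed as lower in the pregnancy effect averaged over diets (0.750% of genes). No other list gene passed in any comparison, and Ren1, the renin gene, had at most 0.0859 CPM in any library. Of the other adrenergic receptors, Adrb3 reached 2.73 CPM in the library with fat genes against at most 0.176 in the other 11.

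**Figure D4:**
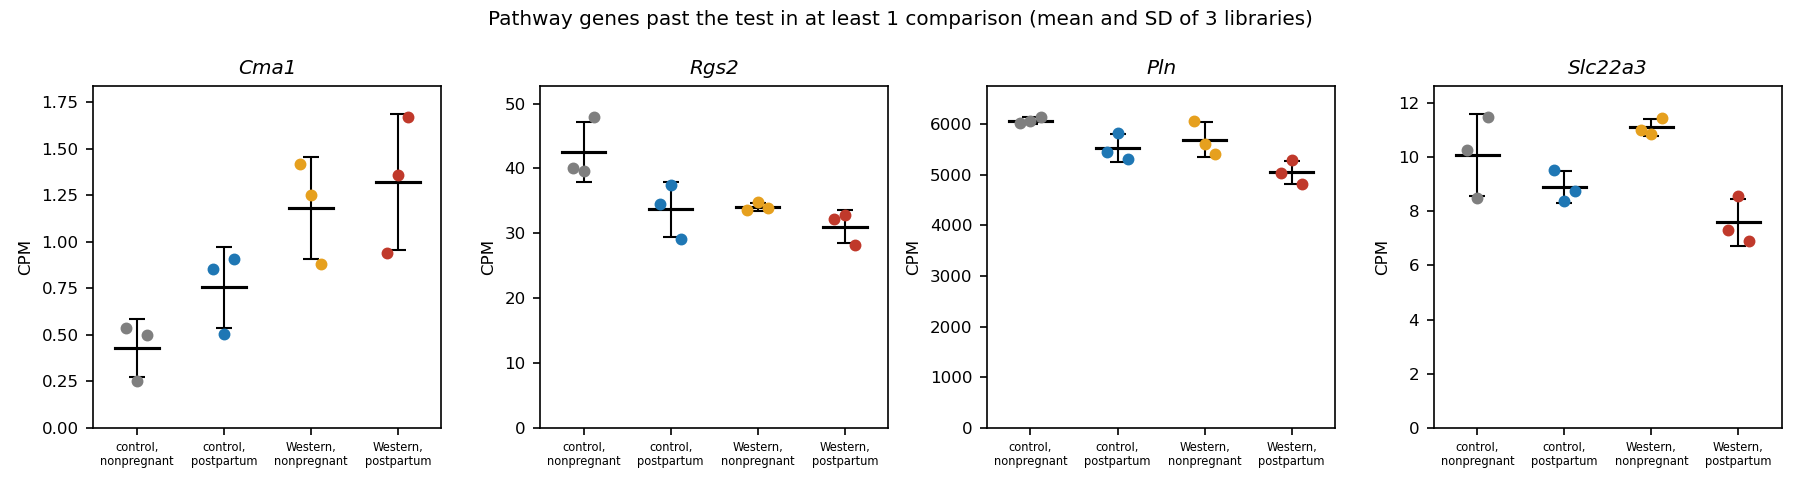
CPM of 4 pathway genes that passed the test in at least 1 comparison (Cma1, Rgs2, Pln and Slc22a3), with a point per library, the group mean as a bar and its SD as the error bar. Rgs2 and Pln lie lower in every Western diet postpartum than in every control diet nonpregnant library.

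Rgs2, which turns off Gq signals, stood at 40.1, 39.6 and 47.9 CPM in control diet nonpregnant and 32.1, 32.8 and 28.2 CPM in Western diet postpartum hearts (log2 fold change -0.45, SE 0.10, edgeR adjusted p = 0.0291). Pln, the phospholamban brake on the calcium pump that beta signalling releases, stood at 6007 to 6133 CPM and 4818 to 5282 CPM in the same groups (-0.27, SE 0.06, adjusted p = 0.0432). Pln is also 1 of the 10 cardiomyocyte markers above. Rgs2 lost its call without any 1 of control diet nonpregnant replicates 2 and 3 and Western diet postpartum replicates 1 and 3 (highest adjusted p = 0.107), and Pln without the same 4 (highest 0.158). Fitting only these 2 groups gave edgeR adjusted p-values of 0.0644 for Rgs2 and 0.127 for Pln.

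Cma1, a mast cell chymase that can make angiotensin II, stood at 0.252 to 0.536 CPM in control diet nonpregnant and 0.939 to 1.67 CPM in Western diet postpartum hearts, with a log2 fold change of 1.60 (SE 0.35, edgeR adjusted p = 0.0308). Its diet effect averaged over pregnancy states was 1.11 (SE 0.24, adjusted p = 0.0348). Slc22a3, a low-affinity transporter of catecholamines, had a pregnancy effect averaged over diets of -0.36 (SE 0.08, adjusted p = 0.0429), with 6.89 to 8.58 CPM in Western diet postpartum against 10.9 to 11.4 CPM in Western diet nonpregnant hearts. On control diet the groups overlapped, with 8.37 to 9.53 CPM in postpartum and 8.49 to 11.5 CPM in nonpregnant hearts. The call of Cma1 across both factors was lost without control diet nonpregnant replicate 2 or 3 or Western diet postpartum replicate 3 (highest adjusted p = 0.121) and when only the 2 groups were fitted (0.0736). Leaving out 1 library mostly lost its averaged diet call, with a highest adjusted p of 0.102. Of these fits, it held only without control diet nonpregnant replicate 1, Western diet nonpregnant replicate 3 or Western diet postpartum replicate 1 or 2. In the alternative fits with edgeR, DESeq2 or limma-voom that kept all libraries, it held, with a highest adjusted p of 0.045. Leaving out 1 library mostly lost the call of Slc22a3, with a highest adjusted p of 0.112. Of these fits, Slc22a3 held its call only without control diet nonpregnant replicate 2 or Western diet postpartum replicate 2. In the alternative fits that kept all libraries, the call of Slc22a3 held, with a highest adjusted p of 0.0447.

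The 2 genes of smallest p over the averaged effects in each list were also looked up, and those not named above did not pass. Adcy9, an adenylyl cyclase, had an averaged diet effect of -0.26 (edgeR adjusted p = 0.0888), and Grk5, the other main cardiac receptor kinase, 0.29 (adjusted p = 0.117). Mme, which degrades angiotensin peptides, stood 0.45 higher on the log2 scale in Western diet postpartum than in control diet nonpregnant hearts (adjusted p = 0.0525). Hsd11b1, which regenerates glucocorticoid, stood 0.55 higher (adjusted p = 0.0547). These 2 values are from the comparison across both factors and are not averaged effects. Over the averaged effects, the smallest unadjusted edgeR p was 0.00639 for Mme and 0.00678 for Hsd11b1, and neither gene passed. Sgk1, a kinase induced by mineralocorticoid receptors, had an averaged pregnancy effect of 0.49 (adjusted p = 0.0844). Averaged diet effects were -0.11 for Gnai2, an inhibitory G protein subunit (adjusted p = 0.167), -0.13 for Prkar2a, a regulatory subunit of protein kinase A (0.134), 0.19 for Plcb4 (0.202) and 0.26 for Plcb1 (0.253), phospholipases downstream of Gq, and -0.32 for the alpha-1 receptor Adra1d (0.443). Averaged pregnancy effects were 0.39 for the alpha-2 receptor Adra2b (0.198), 0.15 for the proton pump subunit Atp6v1h (0.151) and 0.13 for Atp6v1b2 (0.269).

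As a description over the 12 libraries, the genes whose log2 CPM followed each member most closely by Pearson's r were looked up. Agtr1a went with Zyg11b (0.961) and Tbc1d24 (0.926), and Agt with Itgb1bp1 (0.954) and Ptpn11 (0.949). Ace went with Ammecr1l (0.929) and Klhdc8a (0.911), and Adrb1 with Hk2 (0.885) and Hils1 (0.876). Grk2 went with Kcnk1 (0.919) and Scaf1 (0.910), although Kcnk1 averaged only 0.345 CPM. Adra1a went with Zfp451 (0.859) and Atxn2l (0.850), Adra1b with Rab42 (0.904) and Zfp947 (0.873), and Atp6ap2 with Mob3c (0.885) and Nlrp1b (0.870). Rab42, Zfp947 and Nlrp1b were scarce as well, with means of 0.606, 0.719 and 0.642 CPM. The points share library, group and depth. These genes were picked as the highest among the genes tested that have a symbol, leaving out predicted and clone names.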

How the data were processed

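The values are raw read counts per gene in 12 heart libraries, deposited by the authors with no normalization. Per the submitters' processing notes, STAR 2.5.2b, FastQC and the featureCounts counter (Subread 1.5.2) were used, with the GRCm38 (mm10) genome. How strands were counted, and the annotation used, is not given in the sources used here. The labels do not say that libraries of a group came from separate mice, so p-values measure the spread between these libraries. Symbols were matched for 48970 of 49315 genes.

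Genes were filtered with edgeR 4.0.16 (minimum count 10, total 15), which left 15476. A quasi-likelihood model with TMM scaling was fitted to all 12 libraries in R 4.3.3 with a common biological coefficient of variation of 9.62%. Its 8 contrasts were tested two-sided and adjusted separately. The procedure was tested on simulated data. Levels per length use the exonic lengths in the files. DESeq2 1.42.0 and limma 3.58.1 (voom) were alternatives. The 8 genes and the pathway and marker lists were chosen with earlier results of these data known. Genes named beyond the 8 passed the test or had the 2 smallest p-values of their list over the averaged effects. Depth limits precision: 3 counts correspond to 0.102 to 0.132 CPM, for counting error only, since reads carry no molecular identifiers. Some genes of the lists are not reported here, though they stayed in all tests and counts.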

Additional observations from a re-analysis of the deposited data

How the results depend on the processing

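No paired analysis was possible because the labels give the groups no shared replicate numbers. Where values changed with the processing, the cause was not tested. Numbers in each series below follow the order pregnancy on control diet, pregnancy on Western diet, diet in postpartum hearts, diet in nonpregnant hearts, Western diet postpartum against control diet nonpregnant, interaction, averaged pregnancy and averaged diet.

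Genes passing edgeR numbered 37, 91, 136, 9, 406, 0, 276 and 214. With no filter they numbered 744, 933, 1048, 454, 1315, 506, 1262 and 1029, and with DESeq2 185, 354, 437, 89, 777, 30, 596 and 465. Fitting only the groups compared left 6, 47, 71, 0 and 136 in the first 5. A filter of 1 CPM left 5 for diet in nonpregnant hearts, and robust dispersion gave 1 for the interaction. Leaving out 1 library gave 0 to 205, 0 to 472, 30 to 490, 0 to 4, 87 to 764, 0 to 53, 52 to 567 and 83 to 378.

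Of the 8 members, 1 passed across both factors and 0 elsewhere. With no filter the counts were 2, 1, 2, 2, 3, 1, 1 and 2. Across both factors, 2 passed with DESeq2, with the 1 CPM filter and with library sizes free of mitochondrial genes, and 0 when only the groups compared were fitted. DESeq2 passed 1 for averaged pregnancy and 1 for averaged diet. Leaving out 1 library gave 0 to 2 across both factors and 0 to 1 for both averaged effects.

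Directions of members that missed the threshold turned in places. Agt for pregnancy on control diet was -0.12 and became 0.070 with limma-voom. Leaving out 1 library moved it from -0.49 to 0.27, and Agt for diet in nonpregnant hearts from -0.55 to 0.20. Likewise, Adra1b ran from -0.21 to 0.038 for pregnancy on control diet, from -0.20 to 0.093 and from -0.063 to 0.19 for diet in postpartum and nonpregnant hearts, from -0.32 to 0.018 across both factors, from -0.24 to 0.061 for the interaction and from -0.082 to 0.086 for averaged diet. Adra1a ran from -0.22 to 0.017 for pregnancy on Western diet, from -0.076 to 0.19 for diet in nonpregnant hearts and from -0.17 to 0.094 across both factors. Ace ran from -0.035 to 0.12, from -0.067 to 0.082 and from -0.028 to 0.11 in those same 3 comparisons. Atp6ap2 ran from -0.042 to 0.12 for pregnancy on control diet, from -0.022 to 0.14 for diet in nonpregnant hearts, from -0.099 to 0.065 across both factors, from -0.060 to 0.023 for averaged pregnancy and from -0.039 to 0.042 for averaged diet. Grk2 ran from -0.0052 to 0.023 and from -0.0060 to 0.084 for pregnancy on control and Western diet, from -0.073 to 0.017 for diet in postpartum hearts, from -0.066 to 0.024 across both factors and from -0.013 to 0.076 for the interaction. Adrb1 ran from -0.20 to 0.060 for the interaction. TPM gave the members the same order of levels as RPKM. The median log2 fold change of all genes stayed within 0.0228 of 0 under each scaling.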
